A study of Mus musculus with 2 samples.

Results

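The Dlx and Sp factors of interneuron fate were followed in cultured mouse neural stem cells. They are the rows of the deposited matrix whose gene symbol is Dlx1, Dlx2, Dlx5, Dlx6os1, Sp8 or Sp9, which makes 6 of 28692 genes, and all 6 were detected. The cells (strain C57/Bl6J) were derived from the subventricular zone, the neurogenic region along the lateral ventricles. A 20HC group was given the oxysterol 20HC at 1 µM and a control group was given DMSO vehicle; both were taken 3 days after the growth factors EGF and FGF had been removed. The study's title asks about oligodendrocyte formation through the transcription factor Gli2. Each group has 1 library, the number of animals behind the cultures is not given in the labels, and the control's label text also mentions the 20HC treatment, so the group was taken from its title.

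The matrix pools both libraries. Its barcodes end in 1 or 2, and nothing in the labels or file contents says which number is which library. The barcodes are therefore called barcode set 1 and barcode set 2 with no condition, no 20HC against control comparison was made, and the pooled matrix counts as 1 sample without replicates. What follows describes in which cells the 6 genes were found. Intervals are 95% and cover counting error only, and no p-value was computed.

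Dlx genes encode homeodomain transcription factors and lie in linked pairs. In the embryonic ventral forebrain Dlx1 and Dlx2 appear in progenitors before Dlx5 and Dlx6, and the Dlx genes promote GABAergic neuron formation at the expense of the oligodendrocyte lineage. Dlx6os1, also known as Evf2, is a long noncoding RNA transcribed across Dlx6 on the opposite strand. Sp8 and Sp9 are zinc finger transcription factors of interneurons that migrate to the olfactory bulb.

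In GENCODE M21 (GRCm38), Dlx1 lies at chr2:71528113-71533981 on the plus strand and Dlx2 at chr2:71543408-71546754 on the minus strand, 9426 bases apart. Sp9, at chr2:73271925-73284706 on the plus strand, lies 1725170 bases from Dlx2. Dlx5 (chr6:6877805-6882085) and Dlx6os1 (chr6:6820189-6871592) are both on the minus strand, 6212 bases apart, and Sp8 is at chr12:118846329-118852576 on the plus strand. Dlx6os1 overlaps Dlx6, and Dlx1 overlaps the antisense gene Dlx1as, each on the opposite strand. Nothing in the labels or files says whether strand was used in counting, so reads of such overlapping genes cannot be told apart with certainty.

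The sequences before the start sites are shown for Dlx2, Sp9 and Sp8, which share GATTGGCTG, and for Dlx6os1, which holds TAATTA at 2 places. They are RefSeq sequences (GRCm38.p6), available for 5 of the 6 genes, written 5′ to 3′ on the strand of the gene. The stretches for Dlx2, Sp9 and Sp8 run from base 120 to base 2 before the start, and that of Dlx6os1 from base 150 to base 2. In the Dlx2, Sp9 and Sp8 lines, capitals mark GATTGGCTG, which holds an inverted CCAAT box, and in the Sp9 and Sp8 lines also a shared run of 15 bases. In the Dlx6os1 line they mark TAATTA, the core bound by many homeodomain proteins.
Dlx2 (chr2:71546756-71546874, minus strand): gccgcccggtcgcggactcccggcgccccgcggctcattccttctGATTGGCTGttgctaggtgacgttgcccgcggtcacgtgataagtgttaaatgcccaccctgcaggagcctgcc
Sp9 (chr2:73271806-73271924, plus strand): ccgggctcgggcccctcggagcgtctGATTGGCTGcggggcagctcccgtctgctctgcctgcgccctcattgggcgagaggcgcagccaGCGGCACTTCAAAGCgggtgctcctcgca
Sp8 (chr12:118847113-118847231, plus strand): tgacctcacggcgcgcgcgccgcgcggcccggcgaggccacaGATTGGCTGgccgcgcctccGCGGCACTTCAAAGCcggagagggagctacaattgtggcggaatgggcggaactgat
Dlx6os1 (chr6:6869535-6869683, minus strand): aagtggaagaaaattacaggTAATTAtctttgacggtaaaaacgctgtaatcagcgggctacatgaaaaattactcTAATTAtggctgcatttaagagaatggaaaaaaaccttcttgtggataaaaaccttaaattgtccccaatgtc

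GATTGGCTG, searched on both strands of the 250 bases before the start, was in 624 of 32851 start windows (1.90%). The run GCGGCACTTCAAAGC was in 2 of these windows, those of Sp9 and Sp8 shown here. The Dlx1 window is not printed, and its 150 bases before the start (chr2:71529295-71529444) lie inside the annotated Dlx1 gene. This window shares a run of 12 bases with Sp8 (in 21 windows) and one of 11 bases with Sp9 (in 13 windows), each on the opposite strand. TAATTA reads the same on both strands. It was in 2.73% of all windows of 150 bases, and 0.204% held it at least 2 times, as the first of 2 Dlx6os1 windows does; the second has none in its 150 bases. The Sp8 stretch belongs to the second of 3 start sites and lies in an intron of the longer GENCODE transcript. The Dlx6os1 stretch lies in an exon of a longer Dlx6os1 transcript. These matches describe letters and say nothing of binding.

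After filtering, 13078 cells were kept, 9680 from set 1 (median 2829 UMIs) and 3398 from set 2 (median 2888.5). UMIs are unique molecular identifiers, each counting 1 captured RNA molecule. The 2 sets shared 48 barcode sequences. Doublet calling marked 1.92% of set 1 and 0.323% of set 2, fewer than the 7.90% and 2.73% expected from cell numbers. How many doublets remain is unknown. Clusters were drawn without the 6 genes and named from marker lists that hold none of them. Neuroblast-like cells made up 10.9% of kept cells (1425), cycling-like cells 17.4% (2270), progenitor-like cells 6.45% (843), astrocyte-like cells 51.7% (6765) and oligodendrocyte precursor (OPC)-like cells 5.28% (690). Small classes were fibroblast or mural-like (223), ependymal-like (50) and microglia-like (36), and 776 cells stayed unnamed.

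The neuroblast-like cluster had 10 of 13 neuroblast markers raised, among them Dcx, Tubb3 and Elavl4. Its leading genes also held the replication genes Dtl, Hells and Mcm3, and neuroblast and cycling markers were equally many among the 10 leading genes. The cycling-like class is made of an S phase cluster (1169 cells) and a mitotic cluster (1101 cells), in which 11 and 10 of the 13 neuroblast markers were also raised. The cut between neuroblast-like and cycling-like cells is therefore a narrow one, and results that do not rest on clusters are given beside those that do.

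Which cells carried the genes was asked first. At least 1 of the 6 genes had a UMI in 3014 kept cells (23.0%, interval 22.3 to 23.8%), and at least 2 had one in 1250 cells (9.56%). No cell had all 6, and 6 cells had 5. The neuroblast-like, cycling-like and progenitor-like classes together held 94.9% of the UMIs of the 6 genes.

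Dlx1, which in the mouse acts in progenitors and young interneurons, had 3576 UMIs in 2171 cells. Its level was 337 CPM (UMIs of the gene in 1000000 UMIs of the class, interval 318 to 357) in neuroblast-like cells, 292 CPM (279 to 304) in cycling-like cells and 63.6 CPM (53.3 to 75.3) in progenitor-like cells. In astrocyte-like cells it was 5.83 CPM (4.84 to 6.97) and in OPC-like cells 9.35 CPM (5.79 to 14.3). Both barcode sets showed this order for the first 3 classes against the rest, with 342 and 323 CPM in neuroblast-like cells and 6.68 and 3.47 CPM in astrocyte-like cells of set 1 and set 2. A Dlx1 UMI was found in 50.5% of neuroblast-like cells, at a median depth of 2362 UMIs, and in 1.70% of the deeper astrocyte-like cells, at 2998 UMIs. Whether the Dlx1 UMIs of astrocyte-like cells come from free RNA was not tested.

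Dlx2, its neighbour and partner in early progenitors, had 97.2 CPM (87.1 to 108) in neuroblast-like cells, 123 CPM (115 to 131) in cycling-like cells and 28.0 CPM (21.3 to 36.1) in progenitor-like cells, against 4.72 CPM (3.83 to 5.76) in astrocyte-like cells. In neuroblast-like cells it had 97.3 CPM in set 1 and 96.9 CPM in set 2, and in cycling-like cells 114 and 145 CPM. The order of these classes was the same in both sets.

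Dlx5, which follows Dlx1 and Dlx2 in differentiating neurons, was low in progenitor-like cells. It had 84.6 CPM (75.3 to 94.8) in neuroblast-like cells, 83.3 CPM (76.8 to 90.3) in cycling-like cells, 3.80 CPM (1.64 to 7.48) in progenitor-like cells and 0.627 CPM (0.334 to 1.07) in astrocyte-like cells. Dlx6os1 had 82.1 CPM (72.9 to 92.1) in neuroblast-like cells, 55.2 CPM (49.9 to 60.9) in cycling-like cells, 2.37 CPM (0.770 to 5.54) in progenitor-like cells and 0.723 CPM (0.405 to 1.19) in astrocyte-like cells. In progenitor-like cells Dlx6os1 had 3.30 CPM in set 1 and no UMI in set 2. The progenitor-like values depend on how cells were clustered. With called doublets kept, a larger class got that name (1457 cells), with Dlx5 at 38.3 CPM, Dlx6os1 at 20.2 CPM, Sp9 at 7.90 CPM and Dlx1 at 261 CPM, and 5 other alternatives gave no class of that name.

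Sp9 was a gene of few UMIs (236) and Sp8 of very few (32). Sp9 had 16.8 CPM (12.8 to 21.7) in neuroblast-like cells and 20.4 CPM (17.3 to 24.0) in cycling-like cells, against 0.949 CPM (0.115 to 3.43) in progenitor-like cells and 1.16 CPM (0.741 to 1.72) in astrocyte-like cells. Of the 32 Sp8 UMIs, 25 were in cycling-like cells, 6 in neuroblast-like cells and 1 in a progenitor-like cell. Astrocyte-like cells had none, which allows a level of up to 0.145 CPM. In the 50 ependymal-like cells none of the 6 genes was detected, and this small class allows up to 19.6 CPM.

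**Figure D1:**
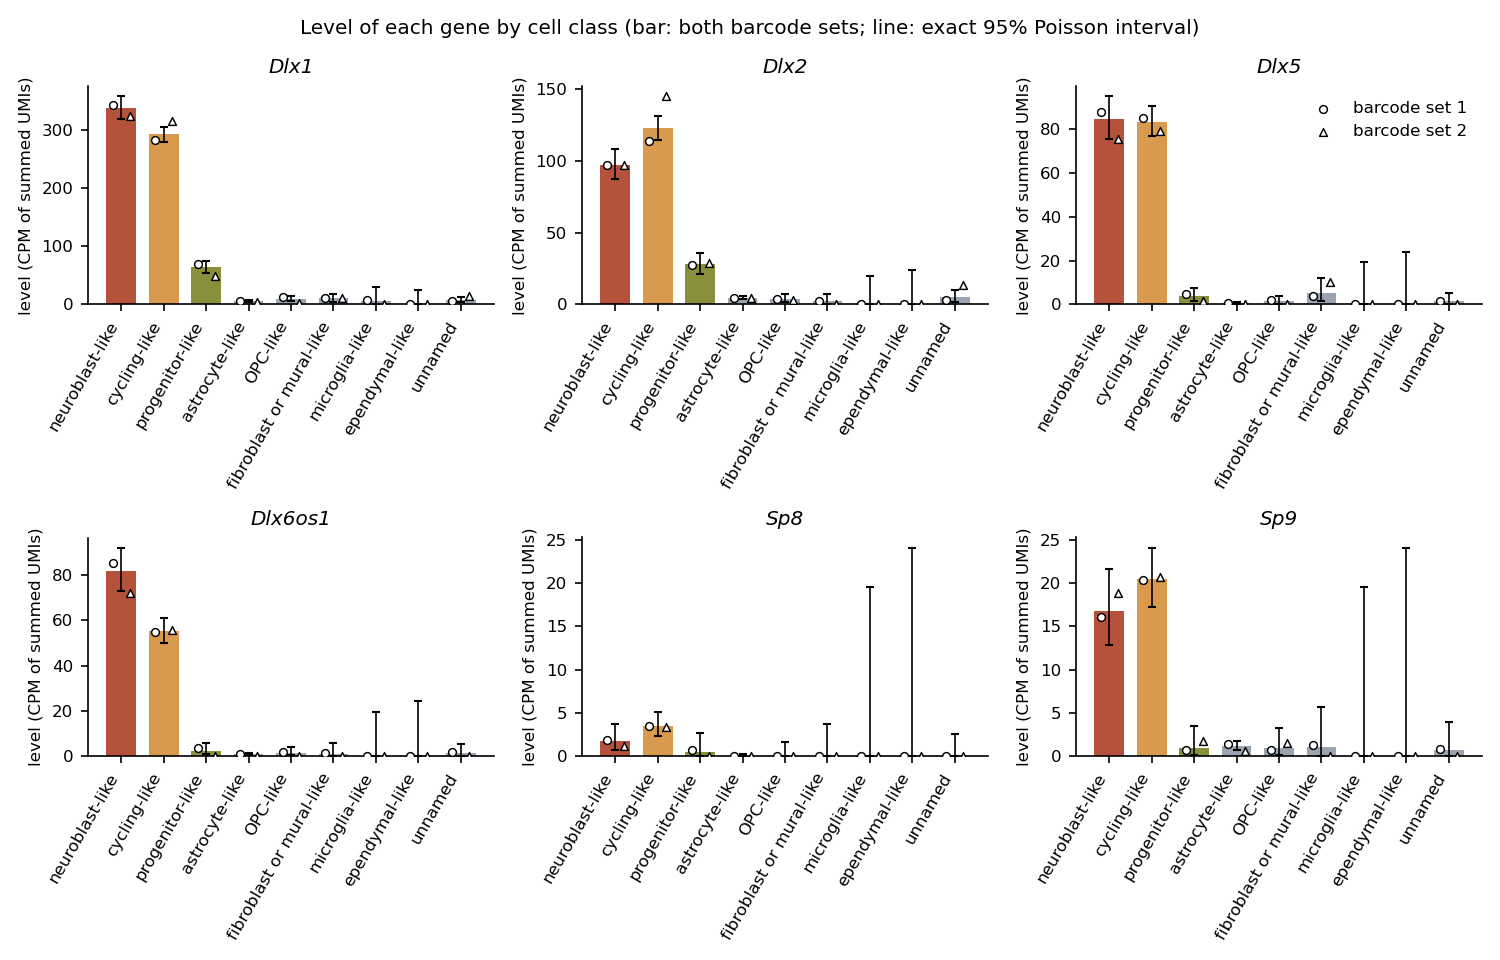
Level of each gene by cell class, as CPM of summed UMIs; bars are both barcode sets together, lines exact 95% Poisson intervals, circles barcode set 1 and triangles barcode set 2. Neuroblast-like and cycling-like cells stand above the other classes for Dlx1, Dlx2, Dlx5, Dlx6os1 and Sp9, and Dlx1 (63.6 CPM) and Dlx2 (28.0 CPM) are also seen in progenitor-like cells, where Dlx5 and Dlx6os1 are below 4 CPM; the long lines belong to the 50 ependymal-like and 36 microglia-like cells.

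A gene was called higher or lower when its CPM differed at least 1.5-fold, in 1 direction in both barcode sets, with the comparison cells outside its Poisson interval. Against all other kept cells, 5 of the 6 genes were called higher in neuroblast-like cells and none lower, where 10.8% of 13041 measured genes were called higher and 30.9% lower. Sp8 was called neither way. The log2 ratios of CPM + 5 were 2.22 for Dlx1, 1.54 for Dlx2, 1.96 for Dlx5, 2.35 for Dlx6os1 and 1.12 for Sp9. Without astrocyte-like cells among the comparison cells, Dlx2 was not called (log2 ratio 0.51) and the log2 ratio of Dlx1 was 1.06. Sp8 was called higher under 3 other clusterings, those at resolution 1.0, without cell cycle genes and without list and marker genes. The comparison cells include the cycling-like cells. Without these the folds were 31.6 for Dlx1, 15.6 for Dlx2, 76.0 for Dlx5, 87.9 for Dlx6os1 and 15.6 for Sp9. The same 5 genes were called higher (15.6% of all measured genes), and Sp8 had too few UMIs to be measured. Of these folds, those of Dlx5, Dlx6os1 and Sp9 differed most between barcode sets, and these genes had only 31, 26 and 30 UMIs in the comparison cells. There Dlx5 had 1.26 CPM in set 1 and 0.689 CPM in set 2, Dlx6os1 1.21 and 0.138 CPM, and Sp9 1.21 and 0.689 CPM.

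In cycling-like cells all 6 genes were called higher than in other kept cells, where 14.8% of measured genes were called higher and 43.4% lower. The folds ran from 5.52 for Dlx6os1 to 15.6 for Sp8, which rests on 32 UMIs. Between neuroblast-like and cycling-like cells none of the 6 was called either way (11.1% of genes were called higher and 6.54% lower in neuroblast-like cells). Dlx6os1 came nearest, at 1.49-fold. This depends on the clustering: in all 8 alternatives that drew the clusters anew and named a neuroblast-like class, Dlx6os1 was called higher in it than in cycling-like cells. The Dlx6os1 levels were 138 CPM in neuroblast-like and 30.4 CPM in cycling-like cells at resolution 1.0, 118 and 40.9 CPM in set 1 alone, and 76.6 and 49.1 CPM in set 2 alone. Dlx5 was called higher in 6 of the 8, with 135 CPM in neuroblast-like and 61.6 CPM in cycling-like cells at resolution 1.0. Sp9 was called higher in 3 of the 8, while Dlx1 and Dlx2 were called in none. The shares of all genes called in these alternatives are not given here, so these counts cannot be set against them. Between the mitotic and the S phase cluster none of the 5 measured genes was called (9.83% higher and 8.05% lower in the mitotic cluster). Sp8 had too few UMIs there to be measured. Dlx1 was at 272 CPM in the mitotic cluster and 309 CPM in the S phase cluster, and Dlx5 at 88.9 and 78.2 CPM.

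Progenitor-like cells as drawn here, led by genes such as Mfge8, Egfr and Btg2, held Dlx1 and Dlx2 but little Dlx5, Dlx6os1 or Sp9. Against astrocyte-like cells, Dlx1 (10.9-fold) and Dlx2 (5.93-fold) were called higher, where 8.23% of genes were, and the other 4 genes had too few UMIs in these classes to be measured. Against all other kept cells, Dlx5, Dlx6os1 and Sp9 were called lower and none higher (13.6% and 3.38% of genes), while Dlx1, Dlx2 and Sp8 were called neither way. Neuroblast-like cells had 5 of the 6 genes called higher than progenitor-like cells and none lower (15.6% and 21.9% of genes). Sp8 had too few UMIs in these 2 classes to be measured. The folds were 5.30 for Dlx1 and 3.47 for Dlx2 but 22.3 for Dlx5 and 34.6 for Dlx6os1. The last 2 rest on 8 Dlx5 and 5 Dlx6os1 UMIs in progenitor-like cells, where Dlx5 had 4.62 CPM in set 1 and 1.69 CPM in set 2. With called doublets kept the folds were 1.67 for Dlx1, 9.27 for Dlx5 and 29.2 for Dlx6os1, and Dlx2 was not called (1.40-fold). For 100 Dlx1 UMIs there were 25.1 Dlx5 UMIs in neuroblast-like cells, 28.6 in cycling-like cells and 5.97 in progenitor-like cells (8 Dlx5 and 134 Dlx1 UMIs). As a share of Dlx1 and Dlx5 UMIs together, Dlx5 was 20.1% (18.1 to 22.2%) in neuroblast-like cells and 5.63% (2.46 to 10.8%) in progenitor-like cells, and the intervals do not overlap.

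The genes were also set against single markers, without clusters. Each cell was thinned to 1500 UMIs, which left out 1273 shallower cells. By Dcx, a microtubule protein of migrating neuroblasts, Dlx1 was in 43.6% (37.4 to 49.9%) of the 257 cells with a Dcx UMI and in 1272 (10.4 to 11.6%) of the 11548 without. Dlx2 was in 16.3% with and 5.01% without. Dlx5 was in 24.1% (19.0 to 29.8%) with and 3.11% (2.80 to 3.44%) without, and Dlx6os1 in 27.6% (22.3 to 33.5%) with and 2.12% (1.87 to 2.40%) without.
All of these genes were thus more frequent in cells with a Dcx UMI, and no pair of intervals overlaps, those of Dlx2 included. Sp9 was in 6.23% (3.60 to 9.91%) with and 0.901% (0.736 to 1.09%) without. Sp8 was in 4 of 257 cells with and 11 of 11548 without. Set 1 and set 2 gave Dlx5 shares of 24.0% and 24.6% in cells with a Dcx UMI, and of 3.13% and 3.05% in cells without.

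**Figure D2:**
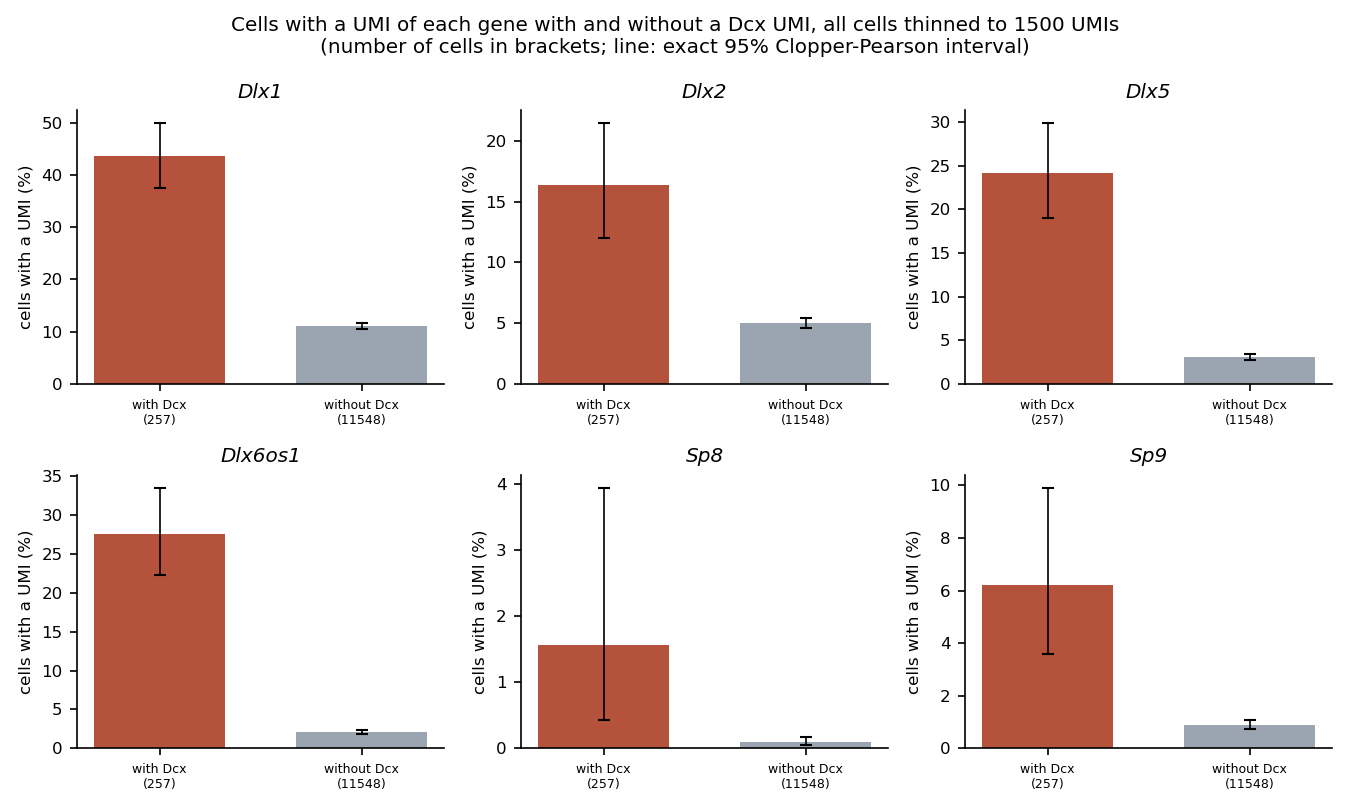
Share of cells with a UMI of each gene, in percent, in cells with and without a Dcx UMI after thinning to 1500 UMIs per cell; lines are exact 95% Clopper-Pearson intervals and numbers of cells are in brackets. All 6 genes are more frequent in cells with a Dcx UMI, among them Dlx5 (24.1% with and 3.11% without) and Dlx6os1 (27.6% with and 2.12% without).

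Egfr, the EGF receptor of activated stem cells and progenitors, gave the opposite order for Dlx5. In all thinned cells Dlx5 was in 0.849% (0.312 to 1.84%) of the 707 cells with an Egfr UMI and 3.74% (3.39 to 4.11%) of the 11098 without, and Dlx6os1 in 1.13% (0.490 to 2.22%) with and 2.78% (2.48 to 3.10%) without. Dlx1 was in 9.90% (7.80 to 12.3%) with and 11.8% (11.2 to 12.5%) without, so these intervals overlap. Within neuroblast-like cells Dlx5 was in 3.39% (0.931 to 8.45%) of the 118 cells with an Egfr UMI and 12.2% (10.4 to 14.2%) of the 1163 without, while the intervals overlapped for Dlx1, Dlx2 and Dlx6os1. Within cycling-like cells Dlx5 was in 1.90% (0.232 to 6.71%) with and 12.7% (11.3 to 14.2%) without. There Dlx1 was less frequent with Egfr too, in 23.8% of 105 cells with and 36.0% of 2076 without, and these intervals do not overlap.

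Tubb3, the neuronal tubulin, divided Dlx5 and Dlx6os1 further. In neuroblast-like cells Dlx5 was in 16.7% (14.2 to 19.4%) of the 816 cells with a Tubb3 UMI and 2.15% (1.04 to 3.92%) of the 465 without. Dlx6os1 was in 122 of the same cells with and 6 without, or 15% and 1.29%. Dlx1 was in 43.8% with and 29.0% without, and Dlx2 in 15.8% with and 13.8% without. Cycling-like cells gave like values for Dlx5, 17.9% with and 4.07% without, and for Dlx6os1, 12.7% with and 1.32% without. The neuroblast-like cells with a Dcx UMI had the highest Dlx6os1 share of these groups, 42.1% (32.0 to 52.7%) of 95 cells, against 7.42% of those without.

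**Figure D3:**
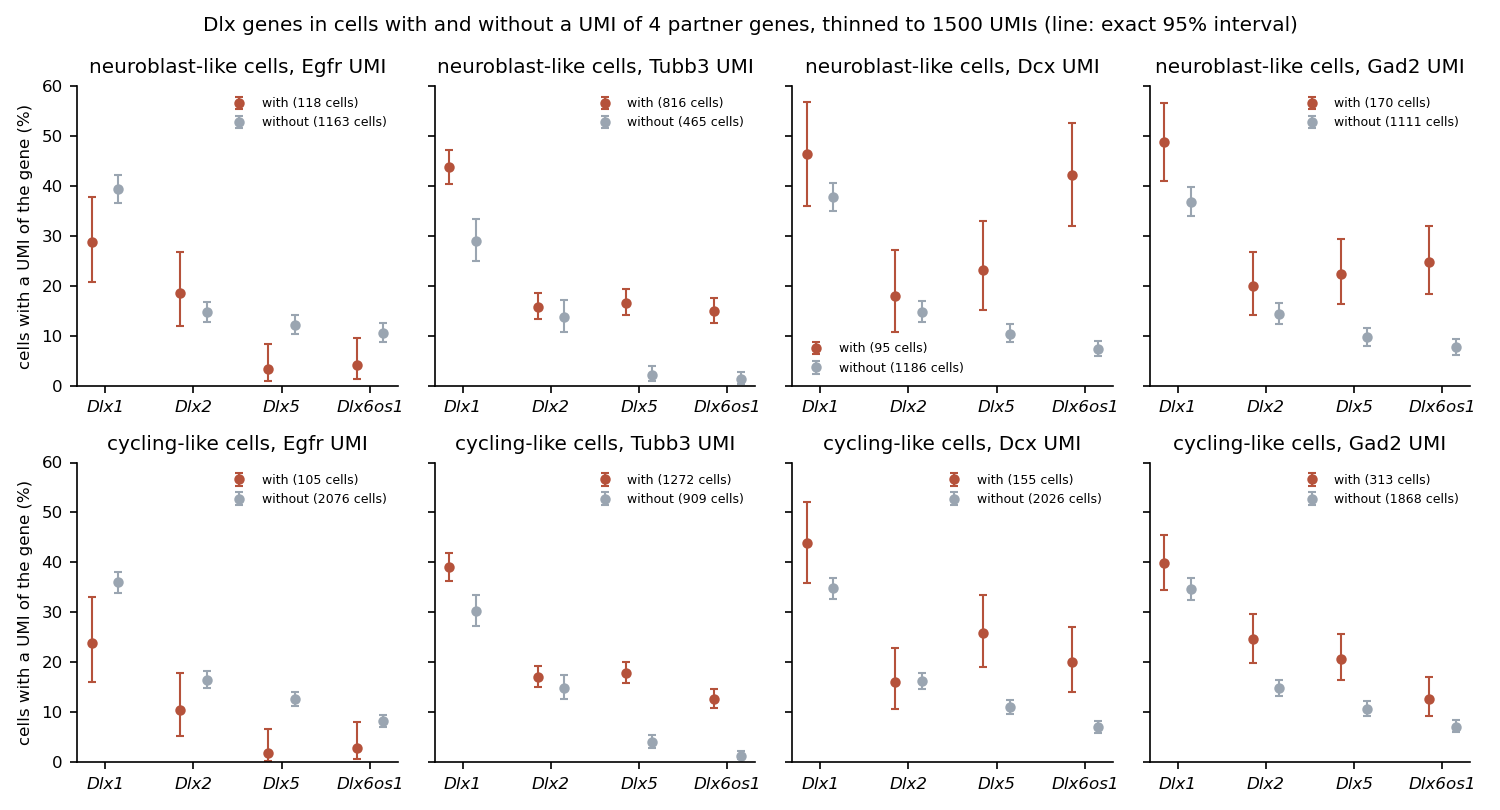
Share of cells with a UMI of Dlx1, Dlx2, Dlx5 or Dlx6os1, in percent, in neuroblast-like (upper row) and cycling-like cells (lower row) with and without a UMI of Egfr, Tubb3, Dcx or Gad2; lines are exact 95% intervals. Dlx5 is less frequent with an Egfr UMI and Dlx5 and Dlx6os1 are more frequent with a Tubb3, Dcx or Gad2 UMI in both classes, and Dlx2 has overlapping intervals with and without Egfr.

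Whether the genes lie in the same cells was asked at the same depth. Dlx5 and Dlx6os1, neighbours on chromosome 6, were often found in the same cells. Dlx5 was in 33.5% (28.4 to 39.0%) of the 316 cells with Dlx6os1 and 2.74% of cells without. Within neuroblast-like cells Dlx6os1 was in 30.8% of cells with Dlx5 and 7.31% without, and within cycling-like cells in 23.0% with and 5.90% without. Dlx2 was in 18.2% (16.2 to 20.3%) of the 1384 cells with Dlx1 and 3.53% of cells without. Within neuroblast-like cells that contrast was smaller, 19.1% with and 12.5% without, and within cycling-like cells 18.9% with and 14.8% without. Across the 13078 cells Pearson's r of log-scaled counts was 0.357 for Dlx5 with Dlx6os1 and 0.303 for Dlx1 with Dlx2; cells share libraries and depth, so these describe the matrix.

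Sp8 and Sp9 were more frequent in cells with a Dlx UMI. An Sp8 or Sp9 UMI was in 4.30% (3.47 to 5.27%) of the 2045 cells with a Dlx1, Dlx2, Dlx5 or Dlx6os1 UMI and 0.471% (0.345 to 0.628%) of the 9760 cells without. Within cycling-like cells it was in 5.39% (4.16 to 6.86%) with and 2.23% (1.42 to 3.33%) without, and within neuroblast-like cells in 3.76% (2.47 to 5.46%) with and 1.53% (0.701 to 2.88%) without, where the intervals overlap. Of the 15 thinned cells with an Sp8 UMI, 7 also had Dlx5 and 8 had Dlx1, and only 1 had Sp9.

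Markers of other fates were set beside the Dlx genes in all thinned cells. Gad2, an enzyme of GABA synthesis, was in 16.4% (14.8 to 18.1%) of cells with a Dlx UMI and 1.88% of cells without. Tubb3 was in 65.4% with and 12.5% without, and the proliferation gene Top2a in 46.6% with and 12% without. Olig1, a factor of the oligodendrocyte lineage, was in 1.22% (0.793 to 1.80%) of cells with a Dlx UMI and 6.50% without. The myelin regulator Sox10 was in 1 of 2045 cells with a Dlx UMI and in 71 of 9760 without. Within neuroblast-like cells the Olig2 shares, 1.16% with and 2.55% without, and within cycling-like cells 1.65% and 1.36%, had overlapping intervals. Gfap, an astrocyte filament gene that these cultures show widely, was in 46.1% with a Dlx UMI and 74.8% without.

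The classes rich in Dlx genes held them in another proportion than the few UMIs of astrocyte-like cells. For 100 Dlx1 UMIs there were 28.8 Dlx2 UMIs in neuroblast-like cells, 42.0 in cycling-like cells and 81.0 in astrocyte-like cells (98 Dlx2 and 121 Dlx1 UMIs). As a share of both genes' UMIs Dlx2 was 22.4% (20.3 to 24.6%) in neuroblast-like cells, 29.6% (28.0 to 31.3%) in cycling-like cells and 44.7% (38.0 to 51.6%) in astrocyte-like cells. Sp9 was 4.75% of Sp9 and Dlx1 UMIs in neuroblast-like cells, 6.55% in cycling-like cells and 16.6% (10.9 to 23.6%) in astrocyte-like cells, the last from 24 Sp9 UMIs. In progenitor-like cells the Dlx2 share was 30.6% (24.2 to 37.6%) and the Sp9 share 1.47% (0.179 to 5.21%), from 2 Sp9 UMIs. Both astrocyte-like clusters showed the raised Dlx2 share, 47.2% and 42.3%.

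The other genes of the programme were followed by lists, with the call rule above and neuroblast-like against all other kept cells; the median log2 ratio of all measured genes was -0.18, with 10.8% called higher and 30.9% lower. Some listed genes were among those used to cluster, 4 of 12 ventral progenitor factors, 6 of 28 interneuron transcription factors, 2 of 5 GABA genes and 4 of 18 migration genes. Of 10 measured ventral progenitor factors 7 were called higher and none lower (median 0.48). They included the Notch-pathway factor Hes6 (496 against 128 CPM), while Six3 was at 28.2 against 26.7 CPM. Of 24 measured interneuron transcription factors 9 were higher and 4 lower (median 0.05). Meis2 (338 against 198 CPM) and Zeb2 (172 against 81.0 CPM) were higher, and Nr2f1 (47.6 against 107 CPM) was lower. The other 3 lower genes, named after their values were seen, were Maf, Sox6 and Npas3. Without astrocyte-like cells among the comparison cells, 4 genes of this list were called higher and 4 lower, where 5.12% of all measured genes were higher and 15.8% lower. Lhx6 and Lhx8, factors of the medial ganglionic eminence, had under 30 UMIs and were not measured.

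Of the 5 GABA genes, 3 were higher and 1 lower (median 0.85). Gad2 (99.5 against 23.8 CPM), Gad1 (16.2 against 6.34 CPM) and the vesicular transporter Slc32a1 were higher. The GABA-degrading enzyme Abat was lower (21.4 against 83.2 CPM). Gad1 and Gad2 also belong to the markers that named the class. Of 16 measured migration genes 5 were higher and 8 lower (median -0.40), beside 10.8% and 30.9% of all measured genes. Pak3 (417 against 79.9 CPM), Dpysl3 (301 against 132 CPM) and Epha4 (44.5 against 25.8 CPM) were higher and the semaphorin receptor Nrp2 (9.97 against 38.4 CPM) was lower. Of 5 measured interneuron subtype genes, Npy and Htr3a were higher, Pvalb was lower, and Calb2 and Ndnf were called neither way.

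None of the 3 measured excitatory neuron genes was called (Emx1, Emx2 and Fezf2), and the other 11 of that list, among them Eomes and Neurog2, had under 30 UMIs. Of 6 measured oligodendrocyte lineage factors 3 were lower, Olig1 (13.1 against 46.4 CPM), Nkx6-2 (6.27 against 31.2 CPM) and Sox10, while Sox8 was higher (68.4 against 31.5 CPM) and Olig2 was called neither way (13.1 against 17.2 CPM). All 14 S phase genes were higher, such as Pcna at 425 against 181 CPM, and 10 of 14 genes of the G2 and M phases were lower, such as Ube2c at 108 against 320 CPM. Of these, 12 of the 14 S phase genes and 13 of the 14 G2 and M genes were used to draw the clusters, so the counts only describe how the class was drawn. The comparison cells include the cycling-like cells. Without these, all 14 G2 and M genes were called higher in neuroblast-like cells (median 1.08), where 15.6% of all measured genes were. Whether cell cycle phase moves the levels of the 6 genes in this class was not tested.

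**Figure D4:**
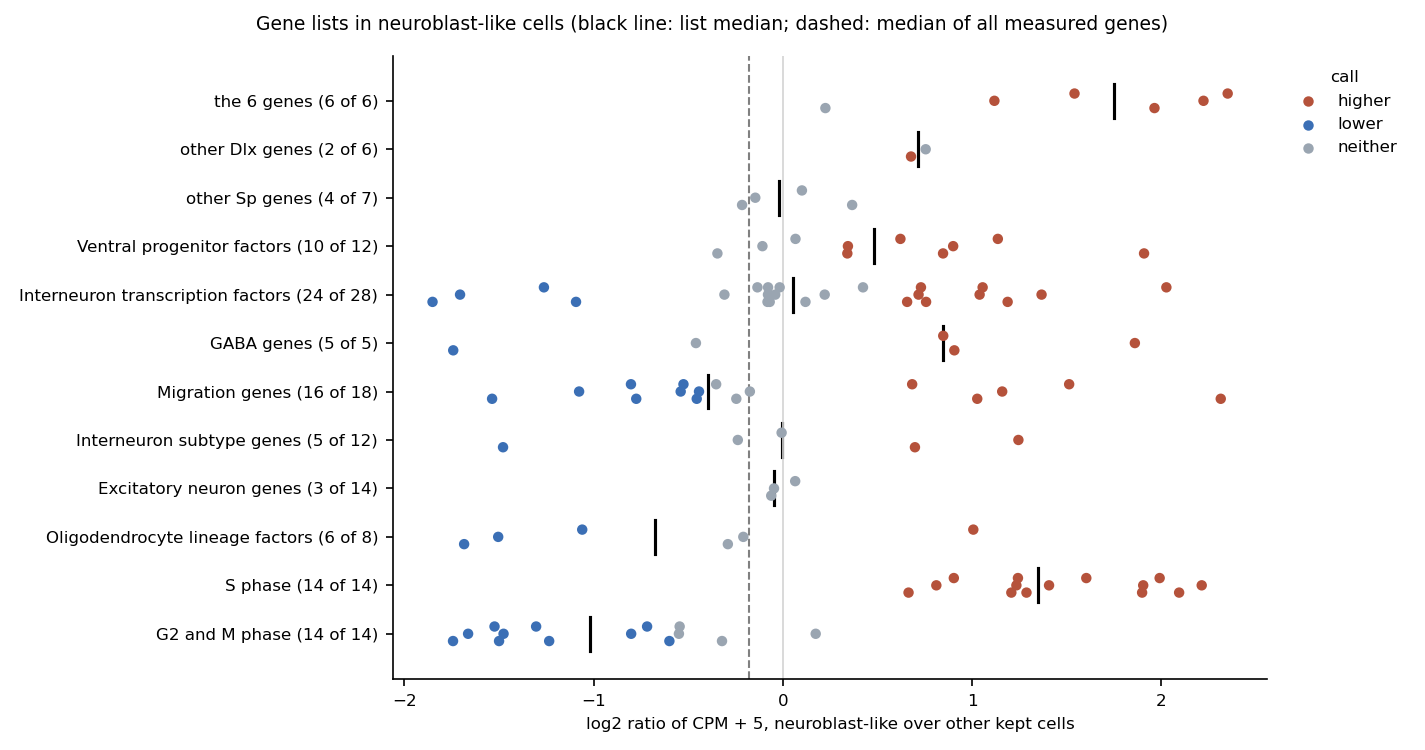
Log2 ratio of CPM + 5 of each measured gene, neuroblast-like over other kept cells, by gene list; points are genes coloured by call, black lines list medians, the dashed line the median of all measured genes (-0.18), and brackets give measured genes of listed genes. Dlx1, Dlx2, Dlx5, Dlx6os1 and Sp9 lie to the right with the S phase genes, and migration genes and interneuron transcription factors are spread to both sides.

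In the families themselves, Dlx6 (150 UMIs) was at 9.12 against 3.37 CPM in neuroblast-like against other cells and was not called, since the barcode sets went opposite ways. It was called higher in cycling-like cells (15.7 against 1.18 CPM). Dlx1as (72 UMIs) was called higher in both classes. The broadly expressed Sp1, Sp2, Sp3 and Sp4 were called neither way in neuroblast-like cells, with Sp3 at 26.8 against 19.7 CPM. In cycling-like cells Sp2 was called higher and the other 3 neither way, where 14.8% of all measured genes were called higher.

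The genes most like each member across the 13078 cells included markers of dividing cells and of young neurons. For Dlx1 they were Stmn1 (r = 0.529), Ccnd2, Hmgn2, 2810417H13Rik and Sox11, and the 5 for Dlx2 were the same genes, led by Hmgn2 (r = 0.343). For Dlx5 Tubb3 came first (r = 0.434), followed by Sox11, Abracl, Stmn1 and Hmgn2, and Tubb3 also led for Dlx6os1 (r = 0.417) and, weakly, for Sp9 (r = 0.181). With 32 UMIs, Sp8 gave no r above 0.074. Over the 12 clusters, the mean of the 6 genes was closest to Gad2 (r = 0.995), Dlgap3, Insm1, Slc18a2 and Dlx6. These were picked for the highest r among all genes with at least 100 UMIs, over only 12 points. Gad2 and Insm1 were also used to draw the clusters, and Gad2 is a marker that named the neuroblast-like class. The r values therefore only describe these clusters. Gad2 was at 99.5 CPM in neuroblast-like cells, 104 CPM in cycling-like cells, 7.59 CPM in progenitor-like cells and 2.65 CPM in astrocyte-like cells.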

How the data were processed

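Cultures of mouse neural stem cells were profiled as single cells with version 1 of the Chromium 3′ kit of 10x Genomics, per the labels' protocols. The submitters' processing notes name Cell Ranger 2.1.1 and build mm10. The deposited values are whole UMI counts for each gene and barcode, not normalized; 1 matrix holds 41462326 UMIs over 28692 genes and 14685 barcodes. GENCODE M21 holds 28339 of the gene IDs (98.8%).

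A cell was kept with at least 500 detected genes and at most 10% mitochondrial UMIs, which removed 1407 barcodes. Scrublet (scanpy 1.11.5), run on each barcode set by itself, removed 189 of 9869 and 11 of 3409 cells. Clustering took log counts per 10000 UMIs of the 2000 most variable genes, less the 6 genes studied, through 30 principal components and 15 neighbours to Leiden communities (leidenalg 0.10.2, resolution 0.5). Of 12 marker lists, the one with the highest mean log2 ratio named a cluster, provided that at least 3 of its markers had 10 UMIs and 2-fold the CPM of other cells and that no other list had more markers among the 10 leading genes.

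UMIs were summed per class as CPM with exact Poisson intervals, and shares have exact Clopper-Pearson intervals. Where 0 UMIs were seen, up to 3 were taken as possible. A gene needed 30 UMIs over both sides of a comparison to be measured. Shares with and without a partner gene used cells thinned to 1500 UMIs. The call rule was tested on simulated Poisson counts with the same folds in both barcode sets. These held no added spread between cells and no unstable cluster border, so they cannot show how the rule behaves in these data. The 6 genes and the 11 gene lists were chosen with earlier results of these data known. Per list, the 4 genes with most UMIs were named (1 each for the cell cycle lists), with all Dlx and Sp family genes of at least 30 UMIs, the 5 genes of highest Pearson r to each of the 6 genes, and the closest over clusters, of which 5 of 10 are given; other names were chosen after their values were seen. Not all genes picked by this rule are reported here. Alternatives covered filters, doublets, clustering, thinning, comparison cells, the call rule and each barcode set alone.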

Additional observations from a re-analysis of the deposited data

How the results depend on the processing

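The number of the 6 genes called higher in neuroblast-like cells ran from 4 to 6 over 14 alternatives, against 5. The share of all measured genes called higher ran from 4.69% at 2-fold to 15.6% without cycling-like comparison cells, against 10.8%. With the clusters as drawn here, none of the 6 was called higher in neuroblast-like than in cycling-like cells. But 3 were (Dlx5, Dlx6os1 and Sp9) with no cell filter, with called doublets kept and with single-precision arithmetic. The number was 2 (Dlx5 and Dlx6os1) at resolution 1.0, without list and marker genes and in set 1 alone. It was 1 (Dlx6os1) without cell cycle genes and in set 2 alone. These alternatives were chosen after seeing the data, and the shares of all genes called in them are not given here. No neuroblast-like class was named, and so no value obtained, with at least 1000 detected genes and at most 5% mitochondrial UMIs, with the 6 genes used to cluster, at resolution 0.3 or with 15 principal components. No progenitor-like class was named with no cell filter, with the stricter filter, at resolution 0.3, without cell cycle genes or in set 2 alone. With called doublets kept, 178 cells were neuroblast-like, with Dlx5 at 355 CPM and Dlx6os1 at 590 CPM (log2 ratio 4.99, against 2.35). Single-precision arithmetic, a setting added after the data were seen, gave 1151 neuroblast-like cells with Dlx5 at 138 CPM and Dlx6os1 at 123 CPM, against 68.9 and 47.5 CPM in cycling-like cells, so the border with cycling-like cells is not stable. The cause was not tested.

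The 9 interneuron transcription factors called higher became 4 without astrocyte-like comparison cells and 5 at 2-fold (5.12% and 4.69% of all measured genes), and 4 were lower in both (15.8% and 21.9%). The share of cells with any of the 6 genes, 23.0%, was 20.9% with no cell filter, 27.2% with the stricter filter, 17.7% after thinning and 23.8% in set 2 alone. The share of Dlx cells with an Sp8 or Sp9 UMI, 4.30%, was 6.78% without thinning, an alternative chosen after seeing the data. Of 120 recomputed single-gene values, 71 stayed within their interval, 48 moved and 1 turned: the Sp8 share in cells with minus cells without a Dcx UMI was -0.159 percentage points with the stricter filter. For Dlx1, Dlx2, Dlx5, Dlx6os1 and Sp9 that difference and the log2 ratio were positive under every alternative that gave one; the Dlx5 ratio ran from 0.90 to 3.87.

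Depth limits Sp8, with 32 UMIs, most. No paired analysis was possible because the barcodes carry no library, so no result rests on paired samples.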
